A study of Rattus norvegicus with 4 samples.

Results

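Cadherins, protocadherins and catenins were followed in the crista ampullaris of the rat. The crista is the sensory epithelium at the end of each semicircular canal and responds to head rotation. Members were the gene probes whose current rat symbol begins with Cdh and a digit, with Pcdh or with Ctnn, apart from the tip link genes Cdh23 and Pcdh15. They came to 47 probes of 34 genes, out of 33849 gene probes and 12330 named genes on the array. A level was testable for 17 of the 34 genes, on 20 of the 47 probes, because their signal was above background on at least 2 of the 4 arrays.

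Tissue came from laser capture microdissection guided by morphology. The supporting cell layer consisted of the supporting cell bodies next to the basal lamina, taken in a second pass. The hair cell layer, taken in the first pass, was the superficial part of the epithelium with type I and type II hair cells, the calyx nerve endings around them and the supporting cell cytoplasm in between. Each layer has 2 single-colour CodeLink oligonucleotide arrays, made from amplified poly(A)+ RNA. The labels give no strain, age, sex or treatment, and nothing in them ties the 2 arrays of a layer to separate animals or captures. The p-values therefore cover only the spread from array to array, possibly a technical one, and the number of arrays limits the precision.

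Classical cadherins bind like cadherins on neighbouring cells through calcium-dependent extracellular repeats, and their cytoplasmic tails bind p120-type catenins and beta-catenin. Alpha-catenin connects beta-catenin to actin, so that the junction holds on to the cytoskeleton, while beta-catenin outside the junction is either degraded or acts in the nucleus as the co-activator of Wnt target genes. Hair cells and supporting cells are joined near the apical surface by such adherens junctions. Protocadherins share the extracellular repeats and lack the catenin-binding tail. The clustered ones are encoded in tandem arrays of similar genes and serve neurons in telling self from other cells.

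Of the 17 tested genes, 3 were higher in the supporting cell layer (Pcdh18, Cdh16 and Ctnnb1), 10 were lower there than in the hair cell layer, and 4 missed the threshold (Pcdh19, Ctnna1, Ctnnd2 and Ctnnbip1). The test was limma at an adjusted p under 0.05, adjusted by Benjamini and Hochberg's method over the 16483 tested probes of the array. Each gene was read at the brightest of its tested probes. Over all 7771 tested genes 65.4% passed, of which the parts higher and lower in the supporting cell layer were 28.2% and 37.2% of the tested genes, and the share of members that passed was 76.5%. The median change of the tested members, supporting cell layer minus hair cell layer on the log2 scale, was -0.37, and that of all tested genes was -0.10. Cdh6, Pcdhb12 and Pcdhb9 were above background in the hair cell layer alone, so they passed the filter only through that layer. Among the 13 members above background on all 4 arrays, the supporting cell layer was higher for 3 and lower for 7, and 3 did not pass. Of all 5752 genes above background on all 4 arrays 65.6% passed in the same test, 31.5% higher and 34.1% lower in the supporting cell layer. The median change was -0.34 over those 13 members and 0.02 over those 5752 genes, and a change of at least 1 in size was measured for 6 of the 13 (46.2%) and for 25.1% of the 5752.

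The count of members lower in the supporting cell layer changed with the arrays and the setting. It was 6 without hair cell layer replicate 1 and 6 without replicate 2, where the share of all tested genes called, in either direction, was 40.6% and 42.1%. It was 5 with the normalized intensity of the scanner software, with 34.2% of all genes called, and 6 with no filter on dim probes, with 21.7% called. The count of members thus became smaller together with the calls across the array. Pcdh18, Cdh16, Cdh1, Cdh11 and Pcdh20 kept their call under each alternative, as did Cdh6 where it had a value, and the other calls did not. Cdh6 had no value when only probes above background on every array were kept. Its log2 change was -2.57 in the main setting and -0.33 with dim signals raised to the highest detection limit. The kept call of Cdh6 therefore says less than those of the other genes named.

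**Figure D1:**
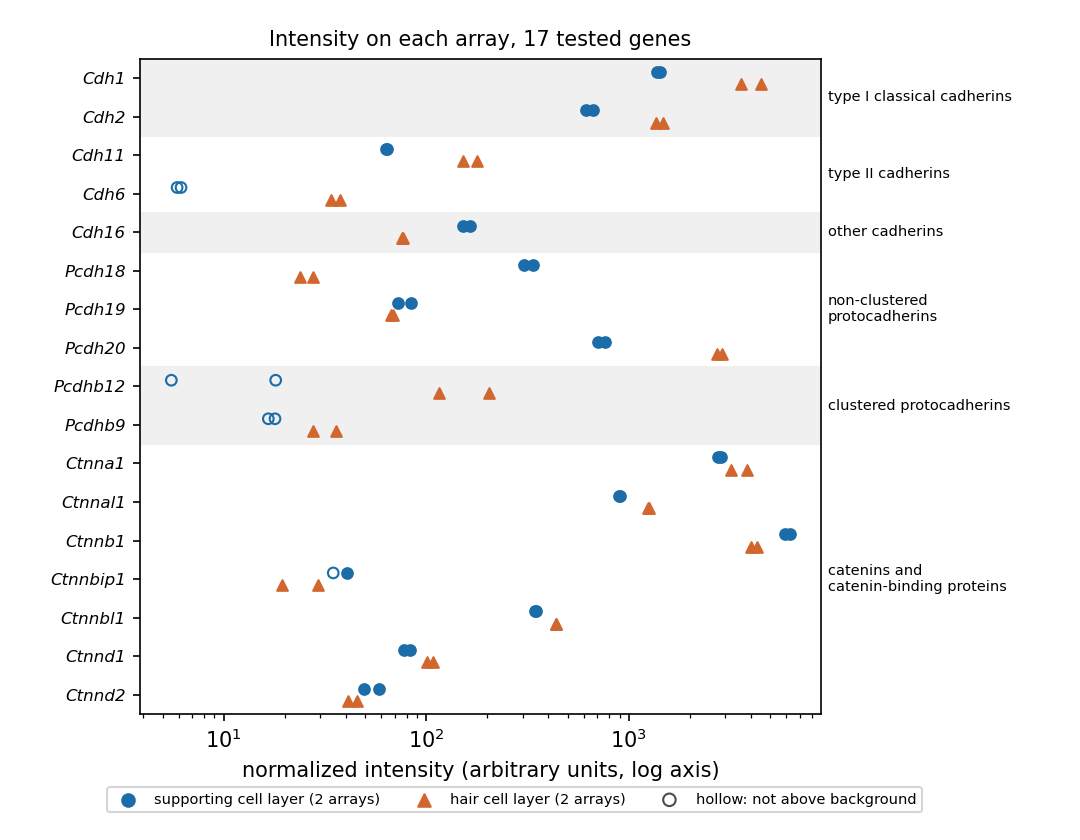
Normalized intensity (arbitrary units, log axis) of the 17 tested genes on each array, with supporting cell layer arrays as circles above hair cell layer arrays as triangles, and hollow symbols where the signal was not above background. Pcdh18 lies at 302 and 335 in the supporting cell layer against 27.6 and 23.9 in the hair cell layer, and Cdh1 and Pcdh20 lie lower in the supporting cell layer.

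Across the whole array, 39.8% and 39.7% of the gene probes were above background on the 2 supporting cell layer arrays, against 48.8% and 45.6% on the hair cell layer arrays. The median raw intensity was 12.1 and 11.9 in the supporting cell layer, against 25.1 and 16.9 in the hair cell layer. The lowest normalized intensity that counted as above background was 26.6 and 28.3 in the supporting cell layer, against 13.9 and 18.5 in the hair cell layer, so a dim member is harder to detect in the supporting cell layer. Replicate arrays correlated at r = 0.994 (supporting cell layer) and r = 0.993 (hair cell layer), across 11059 probes that are not independent of one another. In captured tissue of this kind, fewer cells of a type and less RNA per cell cannot be told apart.

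The type I classical cadherins include the adhesion molecules of epithelial adherens junctions. Cdh1 (E-cadherin), the cadherin of epithelial adherens junctions, had normalized intensities of 1378 and 1432 in the supporting cell layer, against 4509 and 3596 in the hair cell layer. Both supporting cell layer arrays lay below both hair cell layer arrays, and the gap was wider than the spread within either layer. Cdh1 was 2.87-fold lower in the supporting cell layer, a log2 change of -1.52 ± 0.15 (SE, 2 arrays per layer, limma adjusted p = 0.00452). Its other probe read 709 and 664 in the supporting cell layer, against 2200 and 2157 in the hair cell layer, a log2 change of -1.67 ± 0.08 (adjusted p = 0.00157). The probes of this gene thus gave the same direction and a similar size.

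Cdh2 (N-cadherin), known as the cadherin of neurons and muscle and also present in inner ear epithelium, read 614 and 667 in the supporting cell layer, against 1354 and 1479 in the hair cell layer. The layers did not overlap. The log2 change was -1.14 ± 0.10 and the signal 2.21-fold lower in the supporting cell layer (limma adjusted p = 0.00353). With the scanner software's own normalized intensity Cdh2 missed the threshold (adjusted p = 0.0560, with the alternatives between 6.65e-05 and that value). A further Cdh2 probe, listed under the same transcript accession, was above background on no array. Cdh3 (P-cadherin), an epithelial cadherin of skin and placenta, was above background on hair cell layer replicate 1 alone, at 22.4. It was not tested.

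Type II cadherins share the classical architecture and are used mostly in mesenchyme, kidney and the nervous system. Cdh11 (OB-cadherin), which is known from bone-forming and other mesenchymal cells, had intensities of 64.0 and 63.4 in the supporting cell layer, against 178 and 153 in the hair cell layer. The 2 supporting cell layer arrays were almost equal and both were low. The log2 change was -1.37 ± 0.11, a signal 2.59-fold lower in the supporting cell layer (limma adjusted p = 0.00326). Another Cdh11 probe had no signal above background in the supporting cell layer, at 28.5 and 26.5, against 202 and 201 in the hair cell layer.

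A probe above background on neither array of a layer gives only a lower limit of the fold. It was taken as the mean log2 signal of the brighter layer against the mean, per array of the dimmer layer, of the higher of the probe's own signal and the lowest signal above background there. The limit is approximate, because some brighter spots were also not above background, such as Ctnnbip1 at 34.7 on supporting cell layer replicate 2. Small limits, such as those of Cdh6 and Pcdhb9, are therefore uncertain. A p-value printed beside a limit, here and below, is not a test of that limit. It belongs to the change from the signals as tested, which in the dimmer layer were not above background. Each such probe passed the filter only through its brighter layer. By the rule for limits that Cdh11 probe was at least 7.09-fold lower in the supporting cell layer (limma adjusted p = 0.00117). Both tested Cdh11 probes were therefore lower there, and the sizes they give differ. The last Cdh11 probe was above background on hair cell layer replicate 2 alone.

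Cdh6 (K-cadherin), a cadherin of the developing kidney and nervous system, had no signal above background in the supporting cell layer, at 6.15 and 5.88, against 33.9 and 37.4 in the hair cell layer. By the same approximate rule it was at least 1.30-fold lower in the supporting cell layer (limma adjusted p = 0.00129). The limit is low because the hair cell layer signal itself is close to the detection limit of the supporting cell layer arrays. The other Cdh6 probe was above background on hair cell layer replicate 1 alone, at 46.5. The remaining type II members Cdh8, Cdh10, Cdh19 and Cdh20 were above background on no array, among them Cdh19, which is known from Schwann cell precursors.

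Cdh16 (kidney-specific or KSP-cadherin), an atypical cadherin of kidney tubule epithelium with a short cytoplasmic tail, went the other way. It read 152 and 165 in the supporting cell layer, against 75.6 and 77.0 in the hair cell layer. The layers did not overlap, and the supporting cell layer was the higher one. The log2 change was 1.05 ± 0.08, a signal 2.07-fold higher in the supporting cell layer (limma adjusted p = 0.00315). It was thus the only tested cadherin with a Cdh symbol that was higher in the supporting cell layer. Cdh17, the cadherin of intestine and liver, was above background on no array. Cdh13 (T-cadherin), which is held in the membrane by a lipid anchor and lacks a cytoplasmic tail, was above background with 1 of its 2 probes, on hair cell layer replicate 1 alone at 20.8.

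**Figure D2:**
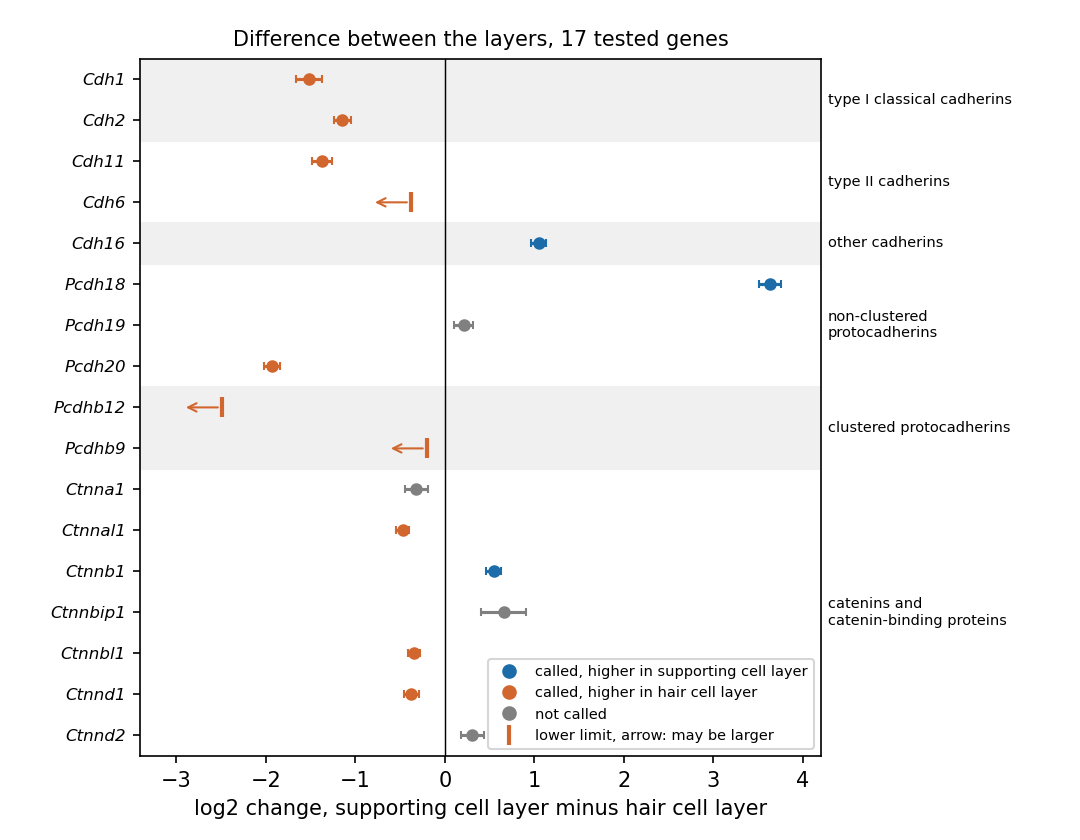
Log2 change, supporting cell layer minus hair cell layer, of the 17 tested genes, with bars for the standard error from limma and, for the 3 genes with no signal above background in the supporting cell layer, a tick at the lower limit of the fold with an arrow toward larger differences. Pcdh18 has the largest positive change, 3.63, and Pcdh20 the largest negative change among genes measured in both layers, -1.93.

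The non-clustered protocadherins held the widest differences in both directions among members above background on all 4 arrays. Pcdh18, a delta-type protocadherin, read 302 and 335 in the supporting cell layer, against 27.6 and 23.9 in the hair cell layer. All 4 signals were above background, and both supporting cell layer arrays were far above both hair cell layer arrays. The log2 change was 3.63 ± 0.12, a signal 12.4-fold higher in the supporting cell layer (limma adjusted p = 0.00122). The other Pcdh18 probe was above background on no array, so the difference rests on 1 probe.

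Pcdh20, a protocadherin known mainly from the nervous system, read 706 and 762 in the supporting cell layer, against 2710 and 2873 in the hair cell layer. The layers were apart by far more than their replicates. The log2 change was -1.93 ± 0.09, a signal 3.81-fold lower in the supporting cell layer (limma adjusted p = 0.00153). Here too the gene's other probe was above background on no array. Pcdh19, whose loss causes an X-linked epilepsy in humans, had 84.1 and 72.8 in the supporting cell layer, against 67.0 and 68.2 in the hair cell layer. Its log2 change of 0.21 ± 0.11 did not pass the test (limma adjusted p = 0.162). Pcdh7, Pcdh11x and Pcdh17 were above background on no array.

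Of the 8 clustered protocadherins with a named probe, Pcdhb12 and Pcdhb9 were tested, and the signals of both lay above background in the hair cell layer alone. Pcdhb12 read 18.0 and 5.51 in the supporting cell layer, neither above background, against 205 and 116 in the hair cell layer. The hair cell layer arrays were both higher and lay far apart from each other. Pcdhb12 was at least 5.61-fold lower in the supporting cell layer (limma adjusted p = 0.0193). Its other probe read 12.6 and 3.37 in the supporting cell layer, against 130 and 138 in the hair cell layer, at least 4.89-fold lower (adjusted p = 0.0154). Without hair cell layer replicate 1 the adjusted p of Pcdhb12 was 0.105, without replicate 2 it was 0.0782 and with no filter on dim probes 0.0643. The lowest limma adjusted p of Pcdhb12, 5.39e-15, came with the scanner software's normalized intensity alone. Under every other alternative it was 0.00229 or more.

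Pcdhb9 read 17.9 and 16.6 in the supporting cell layer, neither above background, against 27.6 and 36.0 in the hair cell layer. By the same approximate rule it was at least 1.15-fold lower in the supporting cell layer. With dim signals raised to the highest detection limit its log2 change was -0.17 (limma adjusted p = 0.349). In the main setting the change was -0.87, called at a limma adjusted p of 0.0210. This call was lost without supporting cell layer replicate 1 (adjusted p = 0.0555) and without supporting cell layer replicate 2 (0.0710), and in 7 of 13 alternatives in all, with adjusted p between 0.0138 and 0.349. Pcdha3, Pcdha4, Pcdhb3, Pcdhb6, Pcdhb21 and Pcdhga9 were above background on no array. Genes of these clusters are close copies of each other, so a probe may also bind the transcript of a neighbour, and the values of Pcdhb12 and Pcdhb9 are uncertain in that respect.

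The beta cluster lies on rat chromosome 18, and the starts of its genes can be set side by side. Protocadherin promoters of mouse and human are known to carry a conserved sequence element. The RefSeq promoter windows of Pcdhb12 (chr18:29413506-29413805, plus strand, GRCr8) and Pcdhb9 (chr18:29379060-29379359, plus strand) run from 250 bases before to 50 bases after the start of each gene. Their longest shared stretch is 20 bases, GGTGGCGCTGCAGGCTAAGA, 98 and 52 bases before the start. The lines below give 30 bases around it, 5′ to 3′, with its first 10 bases, GGTGGCGCTG, in capitals, for the 2 tested genes and for the 3 beta genes whose probes were above background on no array.
Pcdhb12: cgcttGGTGGCGCTGcaggctaagaatatg
Pcdhb9: cacagGGTGGCGCTGcaggctaagattgtg
Pcdhb3: cgcatGGTGGCGCTGttgactaagacgttg
Pcdhb6: cacacGGTGGCGCTGcagtctaaggatttg
Pcdhb21: cacatGGTGGCGCTGcaggataggatgaga

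The whole stretch of 20 bases was found, on either strand, in 5 of 33469 RefSeq promoter windows (0.0149%), all of them of Pcdhb genes. Its first 10 bases were found in 74 windows (0.221%) and in 15 of 19 Pcdhb windows. No other clustered protocadherin window had them, with 15 of 35 in all. In Pcdhb3 they begin 61 bases before the start (chr18:29285425-29285724, plus strand), in Pcdhb6 229 bases (chr18:29320141-29320440, plus strand) and in Pcdhb21 60 bases (chr18:29491969-29492268, plus strand). Beta genes above background in the hair cell layer and beta genes above background nowhere therefore have the same 10 bases ahead of their start. The stretch was chosen after the values were seen, and a match describes the letters of a window, not a bound site. Whether the stretch is the conserved element of mouse and human was not tested.

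Catenins made up the last group, with 7 of 8 genes tested, and their differences were smaller than those of the Cdh genes above background in both layers. Ctnnb1 (beta-catenin), the junction protein that is also the Wnt co-activator, read 6237 and 5879 in the supporting cell layer, against 4030 and 4278 in the hair cell layer. The layers did not overlap, with the supporting cell layer higher. The log2 change was 0.54 ± 0.08, a signal 1.46-fold higher in the supporting cell layer (limma adjusted p = 0.0119). Ctnnb1 was the 1 tested catenin called higher there. It missed the threshold without hair cell layer replicate 1 (adjusted p = 0.0643) and without replicate 2 (0.0513), and over its alternatives the adjusted p lay between 0.00119 and 0.106. The other Ctnnb1 probe was above background on no array.

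Ctnna1 (alpha-E-catenin), which joins beta-catenin to actin, read 2853 and 2746 in the supporting cell layer, against 3184 and 3816 in the hair cell layer. Both supporting cell layer arrays were lower, but the hair cell layer arrays lay far apart, and the log2 change of -0.32 ± 0.12 did not pass the test (limma adjusted p = 0.0991). Ctnnal1 (alpha-catulin), a relative of alpha-catenin, read 893 and 909 in the supporting cell layer, against 1237 and 1263 in the hair cell layer. Its replicates were close together, and it was 1.39-fold lower in the supporting cell layer, with a log2 change of -0.47 ± 0.07 (limma adjusted p = 0.0111). Its adjusted p was 0.0565 without hair cell layer replicate 1 and 0.0600 without replicate 2, and ran between 0.000377 and 0.563 over the alternatives. Ctnna3 (alpha-T-catenin), known from heart muscle, was above background on hair cell layer replicate 2 alone and was not tested.

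Ctnnd1 (p120-catenin), which keeps cadherins at the cell surface, read 78.0 and 82.9 in the supporting cell layer, against 101 and 107 in the hair cell layer. The layers did not overlap, and the signal was 1.30-fold lower in the supporting cell layer, with a log2 change of -0.37 ± 0.08 (limma adjusted p = 0.0283). Ctnnd2 (delta-catenin), the neuronal relative of p120-catenin, read 58.2 and 49.3 in the supporting cell layer, against 41.1 and 45.5 in the hair cell layer. Its log2 change of 0.31 ± 0.13 did not pass (limma adjusted p = 0.112). These relatives thus had changes of opposite sign, of which that of Ctnnd1 passed, and the difference between them was not tested.

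The other catenin-named genes bind catenins or resemble them. Ctnnbl1, which belongs to the spliceosome despite its name, read 343 and 347 in the supporting cell layer, against 436 and 437 in the hair cell layer. Its replicates were nearly equal, and it was 1.27-fold lower in the supporting cell layer, with a log2 change of -0.34 ± 0.07 (limma adjusted p = 0.0222). Ctnnbip1 (ICAT), an inhibitor that keeps beta-catenin from TCF factors, read 40.4 and 34.7 in the supporting cell layer, the lower of which was not above background, against 19.4 and 29.0 in the hair cell layer. The layers did not overlap, but its log2 change of 0.66 ± 0.25 did not pass the test (limma adjusted p = 0.0937). Without hair cell layer replicate 2 it did (adjusted p = 0.0490, with a range over the alternatives of 0.0360 to 0.242).

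The calls of Ctnnd1 and Ctnnbl1 were each lost in 7 of 14 alternatives. Without any 1 of the 4 arrays the adjusted p of Ctnnd1 was between 0.0599 and 0.114 and that of Ctnnbl1 between 0.0672 and 0.0896. Over all alternatives they ran between 0.00816 and 0.724 for Ctnnd1 and between 0.00178 and 0.726 for Ctnnbl1.

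Of the 34 members, 17 had no testable probe. For 14 of these no probe was above background on any array, and for Cdh3, Cdh13 and Ctnna3 it was above background on 1. No member probe that was above background nowhere exceeded an intensity of 21.2. That ceiling lies under the lowest signals above background on the supporting cell layer arrays, 26.6 and 28.3. It lies above those on the hair cell layer arrays, 13.9 and 18.5. A low level of these genes was therefore not detectable at this signal in the supporting cell layer. The share of member probes above background nowhere, 46.8%, stands beside 44.4% of all gene probes. In 8 genes a tested probe stood beside an untested one, as in Cdh2, Ctnnb1, Pcdh18 and Pcdh20, and in the 3 genes with at least 2 tested probes (Cdh1, Cdh11 and Pcdhb12) the probes had the same direction. Cdh4, Cdh5 and Ctnna2 were not analysed here.

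Genes that work with the members were read from 5 further lists. Of 25 other members of the cadherin superfamily 14 had a named probe and 7 were tested. By limma 0 of them were higher in the supporting cell layer, also at an unadjusted p under 0.05, 4 were lower there and 3 did not pass. Fat1 and Fat2 were above background in the hair cell layer alone and passed the filter only through that layer. The 5 genes above background in both layers comprised 2 lower in the supporting cell layer and 3 that did not pass. The median change was -1.50 over the 7 genes and 0.13 over these 5. Lower in the supporting cell layer were the giant cadherins Fat1 (at least 4.29-fold, adjusted p = 0.00859) and Fat2 (at least 2.24-fold, adjusted p = 0.0486), the desmosomal cadherin Dsc2 (log2 change -1.87 ± 0.07) and the vesicle cargo cadherin Clstn1 (-1.50 ± 0.07).

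**Figure D3:**
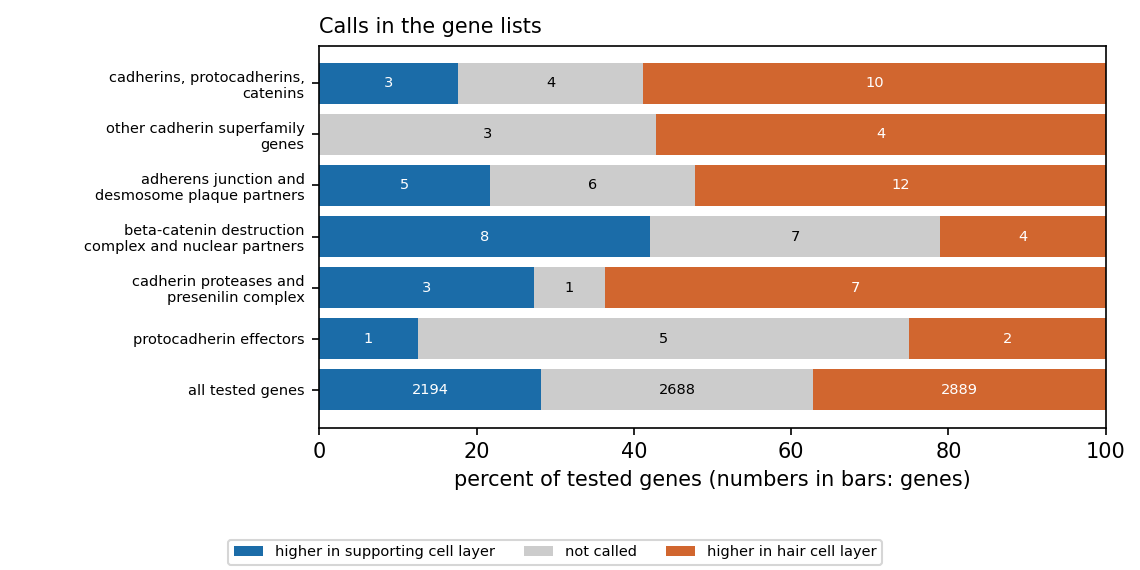
Share of the tested genes of each list (percent, horizontal axis) called higher in the supporting cell layer, not called, or called lower there than in the hair cell layer, and the number of genes in each bar. Cadherins, protocadherins and catenins divide into 3, 4 and 10 genes, and all tested genes into 2194, 2688 and 2889.

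Among 23 tested partners of the adherens junction and desmosome plaques, the supporting cell layer was higher for 5 and lower for 12, and 6 did not pass, with a median change of -0.46. The LIM protein Ajuba (log2 change 1.46 ± 0.08), the plakophilins Pkp3 (0.99 ± 0.07) and Pkp2 (0.78 ± 0.07), which are desmosome plaque proteins, and the tyrosine phosphatase Ptpn1 (0.96 ± 0.07) were higher in the supporting cell layer. Vezatin, Vezt, an adherens junction protein that binds myosin VIIa, was at least 14.3-fold lower there (limma adjusted p = 0.00166) and alone on this list was above background only in the hair cell layer. Over the other 22 genes the median change was -0.39. The adhesion molecule Nectin2 (-3.50 ± 0.09) and the receptor phosphatase Ptprk (-3.00 ± 0.10) were also lower, as was the endocytic adaptor Numb (-1.85 ± 0.13), for which hair cell layer replicate 1 was left out as a contaminated spot. The called genes named from this list were thus lower and higher side by side. Vcl, Camsap3 and Iqgap1 were above background on no array.

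Among 19 tested genes of the beta-catenin destruction complex and of its nuclear partners, the supporting cell layer was higher for 8 and lower for 4, and 7 did not pass, with a median change of 0.35. Higher were the acetyltransferase Crebbp (log2 change 1.61 ± 0.08), the TCF factor Tcf7 (1.40 ± 0.19) and the casein kinases Csnk1a1 (1.27 ± 0.36) and Csnk1e (0.88 ± 0.10). Lower were the scaffold Axin1 (-1.91 ± 0.08), the corepressor Tle3 (-1.63 ± 0.11) and the co-activators Pygo2 (-0.31 ± 0.07) and Bcl9l (-0.26 ± 0.07). Axin2, a gene that Wnt signalling is known to induce, had a log2 change of 0.47 ± 0.22 that did not pass (limma adjusted p = 0.143). Apc, Gsk3a, Gsk3b, Csnk1d, Btrc, Lef1 and Sox17 were above background on no array, so the counts do not cover them.

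Proteases that process cadherins, with the presenilin complex, had 3 of 11 tested genes higher in the supporting cell layer, 7 lower and 1 that did not pass, with a median change of -0.68. The metalloprotease Adam9 (log2 change 0.67 ± 0.11, without hair cell layer replicate 1, whose spot was irregular), the calpain Capn2 (0.52 ± 0.07) and the presenilin complex subunit Psenen (0.43 ± 0.09) were higher. The proprotein convertases Pcsk6 (at least 2.05-fold, adjusted p = 0.0246) and Pcsk5 (-1.05 ± 0.07), the calpain Capn1 (at least 1.47-fold, adjusted p = 0.00115) and the presenilin complex subunit Aph1a (-0.80 ± 0.08) were lower. Pcsk6 and Capn1 were above background in the hair cell layer alone, which leaves 5 lower genes among the 9 above background in both layers. Adam10, the main sheddase of E-cadherin and N-cadherin, had a log2 change of 0.47 ± 0.16 that did not pass (limma adjusted p = 0.0722). Adam17, Mmp3, Mmp7, Mmp9 and Mmp14 were above background on no array.

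Of 8 tested protocadherin effectors, 1 was higher in the supporting cell layer, 2 were lower and 5 did not pass, with a median change of 0.10. Delta-type protocadherins recruit the WAVE actin regulator through its subunits. Of those, Abi2 was higher in the supporting cell layer (log2 change 1.28 ± 0.08), while Nckap1 was lower (-1.11 ± 0.08) and Wasf1, above background in the hair cell layer alone, at least 1.55-fold lower (limma adjusted p = 0.00142).

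Markers of hair cells and of some other cell types differed between the layers as well. Of 15 tested hair cell markers 13 passed by limma as lower in the supporting cell layer. As higher there 0 passed, also at an unadjusted p under 0.05. In all, 4 of the 15 were above background in the hair cell layer alone and passed the filter only through it. The 11 above background in both layers gave 0 higher and 10 lower. The summed intensity of the hair cell markers, over the listed genes with a value on all 4 arrays, was 5569 and 5301 in the supporting cell layer, against 12115 and 12970 in the hair cell layer. Supporting cell markers divided into 5 higher in the supporting cell layer and 6 lower, of 15 tested, and they summed to 23905 and 24709 there, against 25941 and 25638 in the hair cell layer. The label of the supporting cell layer is therefore not borne out by higher levels of this list as a whole.

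Markers of endothelium and connective tissue had higher summed intensities in the supporting cell layer, where Pcdh18, Cdh16 and Ctnnb1 were also higher. Of 10 tested endothelial and pericyte markers 8 were higher there and 1 was lower. In all, 3 of the 10 were above background in the supporting cell layer alone and passed the filter only through it. The 7 above background in both layers gave 5 higher and 1 lower. Sums were 1637 and 1671 in the supporting cell layer, against 541 and 598 in the hair cell layer. Kdr and Pdgfrb were above background on no array. Of 6 tested connective tissue markers 3 were higher and 1 was lower, the lower one above background in the hair cell layer alone. Sums were 2342 and 2379 in the supporting cell layer, against 1014 and 1022 in the hair cell layer. Without the brightest of them, Tbx18 and Mgp, the sums were 913 and 986 in the supporting cell layer, against 729 and 737. Lum, Pdgfra, Postn, Twist1 and Fap were above background on no array. Of 6 tested neuronal markers 4 were higher and 2 were lower, with sums of 1011 and 1005 in the supporting cell layer, against 361 and 374 in the hair cell layer, while Nefh, Scn1a and Stmn2 were above background on no array. The 2 lower markers were above background in the hair cell layer alone and passed the filter only through it. The 4 above background in both layers gave 4 higher and 0 lower. The glutamate receptor gene Gria2 and the potassium channel gene Kcna1, both among these 4, carried the difference between the sums. Without them the sums were 203 and 203 in the supporting cell layer, against 259 and 264 in the hair cell layer, and the neurofilament genes Nefl and Nefm were at least 3.17-fold and 1.60-fold lower in the supporting cell layer (limma adjusted p = 0.0275 and 0.00436). The part of these cells in the differences of Pcdh18, Cdh16 and Ctnnb1 was not tested.

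Schwann cell markers had 2 of 10 tested genes higher and 5 lower in the supporting cell layer. Sums were 4565 and 4491 there, against 4667 and 4738 in the hair cell layer. Without the brightest of them, Pmp22 and Prx, the sums were 1493 and 1487 in the supporting cell layer, against 2094 and 2159. Mbp was above background on no array. Immune markers had 2 of 6 higher and 3 lower in the supporting cell layer. Those 3 were above background in the hair cell layer alone. The 3 above background in both layers gave 2 higher and 0 lower. Sums were 141 and 124 in the supporting cell layer, against 351 and 334 in the hair cell layer. They leave out Csf1r and Cd68, which lack a value on 1 array. Without the brightest genes summed, Aif1 and Itgam, the sums were 80.2 and 77.7 in the supporting cell layer, against 93.7 and 99.1. Ptprc, C1qb, Lyz2 and Cx3cr1 were above background on no array. Bone, cartilage and muscle markers had 1 of 5 higher and 2 lower, with sums of 394 and 429 in the supporting cell layer, against 738 and 741 in the hair cell layer. Without the brightest of them, Col2a1 and Myh2, the sums were 272 and 315 in the supporting cell layer, against 176 and 184 in the hair cell layer. Pigment and dark cell markers had 1 of 2 higher and 1 lower. Mitf read 258 and 271 in the supporting cell layer, against 13.5 and 18.3 in the hair cell layer, neither of the hair cell layer signals above background. Pmel went the other way, with 206 and 200 in the supporting cell layer, against 2693 on hair cell layer replicate 2, the spot on replicate 1 being contaminated. Tyr, Tyrp1 and Kcne1 were above background on no array, and no sum is given, since it would leave out Pmel. Blood markers had 1 of 3 higher and 0 lower, also at an unadjusted p under 0.05 by limma. The higher one, Ahsp, was above background in the supporting cell layer alone. Sums were 231 and 226 in the supporting cell layer, against 54.0 and 87.0 in the hair cell layer. Without the brightest of them, Ahsp and Alas2, the sums were 37.6 and 44.7 in the supporting cell layer, against 37.5 and 47.8. The part of all these cell types in the members that were lower or higher in the supporting cell layer was not tested.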

How the data were processed

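Total RNA of 4 laser-captured samples was measured on CodeLink arrays. Per the file headers, CodeLink Expression Analysis 4.0.0.23520 read the slides, and the deposited files give for each spot a raw intensity, which goes below 0 on some spots, a normalized intensity and a quality flag. The sources used here name no genome build. The deposited series table repeats the normalized intensity. In its column for supporting cell layer replicate 2 only 3 of 35125 rows equalled the scanner file, and 35035 did after a shift of 2 rows, so the table was used for matching probes (within 1e-06 on the other columns) and not for values.

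Probes took their symbol from the platform annotation (16720 probes), a RefSeq accession (192) or the file's own description (10), updated to the GRCr8 gene table. A further 165 probes with several genes, 10 with conflicting accessions and 16752 without a gene were not named. Of those with several genes 2 include a member. The symbol of Pcdha3 is that of the platform.

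Raw intensities, without the 69 to 637 spots per array flagged for contamination, irregular shape or a manufacturing failure, were quantile-normalized, raised to a floor of 0.1 of the median and taken to log2 in R 4.3.3. Probes above background on at least 2 of 4 arrays were tested with limma 3.58.1 (lmFit and eBayes, two-sided, all arrays, no covariate) and Benjamini-Hochberg adjustment over all 16483 of them, at a threshold of 0.05. The script was tested on simulated data. Alternatives changed the scaling, floor, filter, prior trend, probe choice, naming, replicate block and arrays used. Same-numbered arrays did not deviate together (correlation -0.00223 over 15984 probes), so the numbers were not taken as pairs.

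The members and lists were chosen with earlier results of these data known. Named are all members, with values per array for those called and for the classical junction genes, and at most 4 called genes per direction in each other list, by size of change. Axin2 and Adam10 were added after their values were seen, as were the genes of these lists named as above background on no array. So were the markers Gria2, Kcna1, Nefl, Nefm, Mitf, Pmel, Col2a1, Myh2, Aif1, Itgam, Tbx18, Mgp, Ahsp, Alas2, Pmp22 and Prx. The values of Pcdh19, Ctnnbip1, Cdh6's and Cdh13's untested probes and Ctnna3 were also added then.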

Additional observations from a re-analysis of the deposited data

How the results depend on the processing

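No member changed direction under the alternatives run, listed among the processing steps. With the scanner software's own normalized intensity, 6871 probes were called, against 11112 in the main setting, with 2 members higher in the supporting cell layer and 5 lower, a median change of -0.23 over the tested members, and a median over all genes of 0.02 in place of -0.10. With no filter on dim probes, 6654 probes were called, with 2 members higher and 6 lower. Leaving out 1 array gave 7181 to 9991 called probes, 2 to 3 members higher and 6 to 7 lower. The lowest count of probes was without hair cell layer replicate 1, and without hair cell layer replicate 2 it was 7407. The lone array left in a layer is assumed to vary like the other layer. The cause of these shifts was not tested, beyond the larger number of probes tested without a filter and the smaller number of arrays. With the replicate block 8701 probes were called, with 3 members higher and 7 lower. Ctnnbl1 (adjusted p = 0.0758), Ctnnd1 (0.0660) and Pcdhb9 (0.0576) then missed the threshold, and the block changed no other member's call.

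Gained calls were few. Ctnna1 and Ctnnbip1 passed in 2 of 13 alternatives each, Ctnnd2 in 1 of 14, and Pcdh19 in 0. Signal over background limits the dim members: Cdh6, Pcdhb12 and Pcdhb9 have only lower limits of fold, and 17 genes gave no test. With 2 arrays per layer and 1 tested probe for most genes, differences as small as those of the catenins depend on the setting.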
